A study of Mus musculus with 6 samples.

Results

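Collagen genes were followed in the kidneys of mice that overexpress adiponectin in the renal tubules. The genes were taken by name, as every protein-coding gene of the deposited table whose symbol in GENCODE M21 reads Col, a number, a and a number. This gave 44 genes of the 54532 in the table, of which 11 encode fibrillar collagens, 6 the basement membrane collagens of type IV and 27 all other collagens. The rule used no measured value, but it was set with earlier results of these data known. Whole kidneys came from KsprtTA mice (Control, genotype WT in the labels) and from KsprtTA/TRE-Adiponectin mice (KSPAPN), and mRNA was sequenced from 3 libraries per group. Each library was a pool of 3 mice, so that the 3 libraries of a group held 9 mice, and the 3 libraries were taken as the replicates. Mice of both groups ate chow with 600 mg/kg doxycycline over 4 days, and both carried KsprtTA, which places the doxycycline-dependent activator in tubular epithelium, proximal segments and collecting ducts included. Only the KSPAPN mice carried the adiponectin transgene. The labels name the tissue as kidney, although their extraction text speaks of liver.

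Collagens are the main structural proteins of the extracellular matrix. Each is built from 3 chains that wind into a triple helix, which requires a glycine at each turn of a repeat of 3 residues. Fibrillar collagens such as types I, III and V form the banded fibrils of the interstitium and are made in the kidney mainly by fibroblasts, pericytes and smooth muscle cells. Type IV collagen forms the sheet-like network of basement membranes. The chains of Col4a1 and Col4a2 are found in nearly all of these, whereas those of Col4a3, Col4a4 and Col4a5 form the network of the mature glomerular basement membrane, which podocytes secrete, and of some tubular segments. Excess deposition of fibrillar collagen is the hallmark of kidney fibrosis. Adiponectin, the product of the transgene, itself carries a short collagen-like domain.

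The triple-helix repeat was read from the coding sequences of GENCODE M21 as the longest uninterrupted run of codon triplets that begin with a glycine codon. Its length set the fibrillar genes apart from the rest. It was 300 repeats or more in 9 genes, all of them fibrillar, and reached 338 in Col1a1 and 344 in Col3a1. The other fibrillar genes, Col24a1 and Col27a1, had runs of 216 and 217, and outside the class the longest was 113, as in Col9a1. Type IV chains are interrupted often, and the longest run was 40 in Col4a1 and 39 in Col4a3. Over all 44 genes the run ranged from 23 in Col26a1 to 344 with a median of 58.5, and in Adipoq it was 22. The stretches below are the first 15 codons of that run for the genes on which the results turn, 5′ to 3′, with the glycine codon that opens each repeat in capitals. Any further glycine codon within a repeat is in lower case.
Col1a1: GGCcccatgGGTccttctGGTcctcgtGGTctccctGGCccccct
Col3a1: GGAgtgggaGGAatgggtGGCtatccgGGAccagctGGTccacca
Col4a1: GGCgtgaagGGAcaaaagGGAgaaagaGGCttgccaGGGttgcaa
Col4a3: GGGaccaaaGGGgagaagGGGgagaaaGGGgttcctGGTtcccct
Col18a1: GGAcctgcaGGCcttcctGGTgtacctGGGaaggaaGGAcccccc
Col19a1: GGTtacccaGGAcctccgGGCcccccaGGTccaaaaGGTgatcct
Col6a6: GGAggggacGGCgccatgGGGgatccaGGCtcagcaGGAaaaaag
Adipoq: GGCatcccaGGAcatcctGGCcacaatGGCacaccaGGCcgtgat

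Type IV genes lie in head-to-head pairs that are transcribed away from each other. Col4a4 and Col4a3 start 71 bases apart on chromosome 1, Col4a6 and Col4a5 start 1308 bases apart on the X chromosome, and the first exons of Col4a1 and Col4a2 on chromosome 8 overlap by 22 bases. The stretch between the annotated starts of Col4a4, on the minus strand, and Col4a3, on the plus strand, is shown because 1 short stretch lies upstream of both genes, whose levels are set side by side further on. It spans chr1:82586850-82586920 of GRCm38.p6, is given on the plus strand from the RefSeq promoter table and has a GC content of 69.0%.
Col4a4 to Col4a3: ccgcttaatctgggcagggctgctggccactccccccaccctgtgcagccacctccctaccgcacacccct

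The 6 libraries held 17183358 to 20871173 counts. Adipoq, the targeted gene, was counted at 0 to 2 reads in Control libraries and at 17483 to 26811 in KSPAPN libraries. Markers of kidney cell types were present in every group. The proximal tubule markers summed to 3050 to 3460 FPKM (fragments per kilobase of transcript, scaled to library size) in Control and 2670 to 2910 in KSPAPN, and 2 of the 10 were lower at an adjusted p below 0.05. The 6 hepatocyte markers summed to 533 to 846 FPKM in Control and 306 to 463 in KSPAPN, nearly all of it Cyp2e1 and Ttr, which were lower. Alb, the defining marker, was at 1.14 to 2.56 FPKM in Control and 0.275 to 4.46 in KSPAPN, and Ahsg had 0 to 1 reads against 2 to 15. Replicates are pools, so the p-values below measure the spread between pools and not between mice. In whole tissue, fewer cells of a type and less RNA per cell cannot be told apart.

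Kidney collagen mRNA was mostly basement membrane collagen. Collagen genes held 0.203, 0.170 and 0.213% of all counts in the Control libraries and 0.212, 0.173 and 0.243% in the KSPAPN libraries. Replicate 2 had the lowest share in both groups, and the groups overlapped. Summed per length, the 6 type IV genes reached 152, 137 and 156 FPKM in Control and 138, 133 and 177 FPKM in KSPAPN. The 11 fibrillar genes summed to 26.0, 20.5 and 32.4 FPKM in Control and 29.4, 20.3 and 37.1 FPKM in KSPAPN. For the 27 others the sums were 58.1, 44.2 and 59.7 FPKM against 60.2, 45.5 and 62.0 FPKM. In each class the range of Control and that of KSPAPN overlapped.

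**Figure D1:**
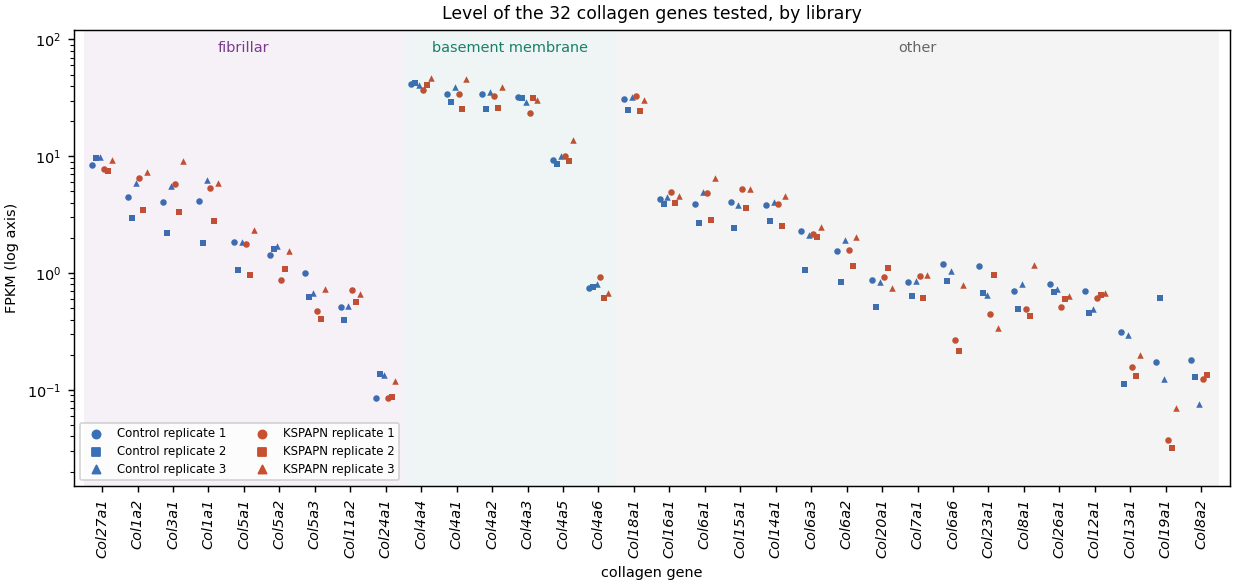
Level of the 32 tested collagen genes in FPKM on a log axis, with 1 point per library (circle, square and triangle for replicates 1, 2 and 3), Control in blue and KSPAPN in red, ordered within each class by mean level. Col4a4, Col4a1, Col4a2, Col4a3 and Col18a1 lie at 23.6 FPKM or higher in all 6 libraries, and Col19a1 and Col6a6 are the genes whose blue and red points lie farthest apart. One library of Col8a2 at 0 is not drawn.

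Few genes made up most of this mRNA. The mean over the 6 libraries was at least 10 FPKM for 6 genes, between 1 and 10 FPKM for 12, between 0.1 and 1 FPKM for 14 and below 0.1 FPKM for 12. Col4a4 led with 17.9% of the summed collagen FPKM, followed by Col4a1 with 14.9%, Col4a2 with 13.9%, Col4a3 with 12.9%, Col18a1 with 12.6% and Col4a5 with 4.39%. Together these 6 held 76.6%. Neighbours in this order down to Col18a1, the source of endostatin and a proteoglycan of basement membranes, had overlapping ranges over the libraries. A gap followed: the lowest library of Col18a1 was at 24.2 FPKM and the highest of Col4a5 at 13.7 FPKM. Below it the ranges of Col4a5 and Col27a1 overlapped, and the lowest library of Col27a1, at 7.52 FPKM, lay just above the highest of Col1a2, at 7.34 FPKM. From Col1a2 down to Col14a1 each range overlapped that of the next gene. The tail held genes of cartilage and skin such as Col2a1, Col9a1 and Col17a1.

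In the comparison of KSPAPN with Control, no collagen gene passed the test. Of the 44 genes, 32 passed the filter on low counts, 9 of them fibrillar, all 6 of type IV and 17 others. By edgeR's quasi-likelihood test with Benjamini-Hochberg adjustment over 16017 genes, 0 collagen genes were higher and 0 lower at an adjusted p below 0.05, where 0.393% of all genes tested were higher and 2.25% lower. At an unadjusted p below 0.05 the counts were 0 higher and 2 lower, Col19a1 and Col6a6, against 7.52% and 11.2% of all genes. DESeq2 called the same 2 genes lower and 0 higher after adjustment, where it called 5.11% of all genes lower and 1.22% higher. It gave no adjusted p for Col24a1 and Col8a2. With no filter on low counts, edgeR called Col1a2 (adjusted p = 0.0165), Col3a1 (2.66e-05) and Col15a1 (0.0396) higher and Col6a6 (1.53e-06) and Col19a1 (7.6e-06) lower. That fit called 1.02% of all genes higher and 3.53% lower. The log2 fold changes of Col3a1, Col6a6 and Col19a1 were 0.62, -1.28 and -2.66 both with and without the filter. With the filter their edgeR adjusted p were 0.385, 0.125 and 0.0662, and the cause of this shift was not tested.

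The log2 fold change was positive for 20 of the 32 genes and negative for 12, where 51.9% of all genes tested were positive. Its median was 0.11 for fibrillar, 0.025 for type IV and 0.078 for other collagens, beside 0.012 for all genes tested. All 3 medians turned negative without Control replicate 2 (-0.15, -0.063 and -0.10) and without KSPAPN replicate 3 (-0.20, -0.10 and -0.033). They stayed positive on leaving out any other single library, and were highest without KSPAPN replicate 2 (0.39, 0.13 and 0.18). Every library of one group exceeded every library of the other for 1 gene that was higher in KSPAPN, Col11a2, and 3 that were lower, Col19a1, Col6a6 and Col26a1. That pattern occurred in 11.4% of all genes for higher and 13.1% for lower.

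The intervals bound what could have been missed. For 22 of the 32 genes the 95% interval of the log2 fold change lay between -1 and 1, and among all genes tested this held for 75.0%. It held for all 6 type IV genes, for 4 of the 9 fibrillar genes and for 12 of the 17 others. In the remaining 10 the interval reached to -1 or 1 or beyond. Standard errors ran from 0.10 to 0.21 for type IV, from 0.11 to 0.41 for fibrillar and from 0.12 to 0.79 for other collagens.

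**Figure D2:**
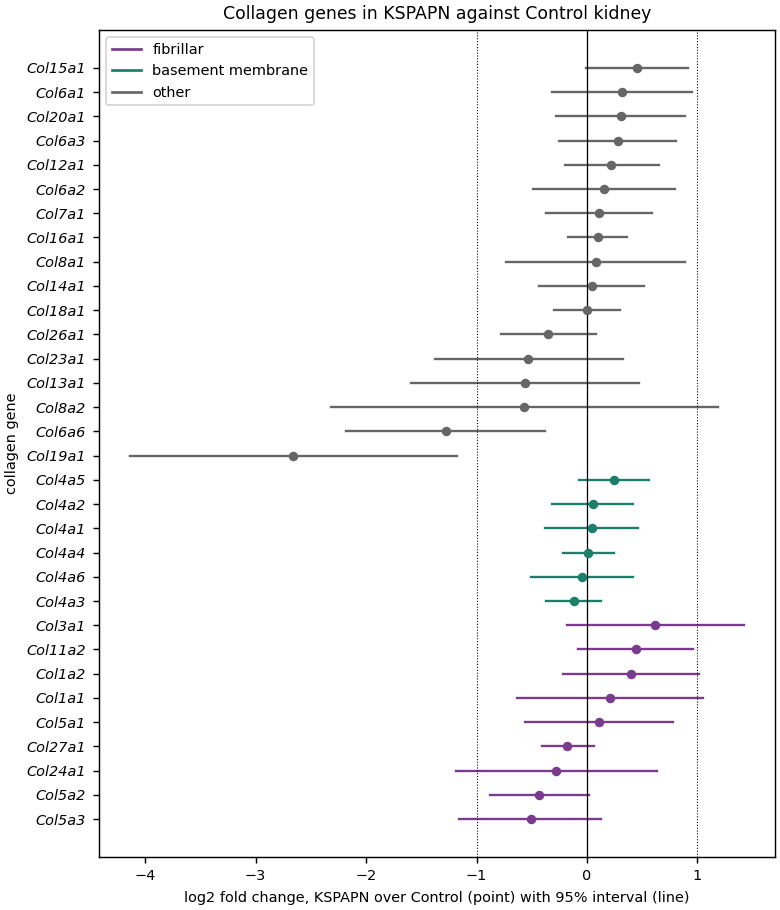
Log2 fold change of KSPAPN over Control (point) with its 95% interval from edgeR (line) for the 32 tested collagen genes, by class, with dotted lines at -1 and 1. All 6 type IV intervals lie between the dotted lines, and the intervals of Col19a1 and Col6a6 lie wholly below 0.

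Among the type IV genes, Col4a4 was at 41.4, 42.1 and 40.4 FPKM in Control and at 36.7, 40.6 and 47.0 FPKM in KSPAPN. The group means were alike, 41.3 ± 0.86 against 41.4 ± 5.19 FPKM (SD, n = 3), and the KSPAPN libraries lay on both sides of the Control range. The log2 fold change was 0.0097 with an interval from -0.22 to 0.24. Col4a1 was at 34.2, 28.9 and 39.5 FPKM in Control and at 34.0, 25.4 and 45.6 FPKM in KSPAPN. Its partner Col4a2, whose chain joins that of Col4a1 in 1 helix, was at 34.3, 25.3 and 35.6 FPKM and at 32.6, 26.0 and 39.5 FPKM. For both genes replicate 2 was the lowest and replicate 3 the highest library of each group, and the log2 fold changes were 0.04 ± 0.19 and 0.05 ± 0.17 (SE) with edgeR adjusted p = 0.934 and 0.904. Col4a3, mutated like Col4a4 and Col4a5 in Alport syndrome, was at 32.2, 31.7 and 29.2 FPKM in Control and at 23.6, 31.7 and 30.2 FPKM in KSPAPN. One KSPAPN library was low and the others lay among the Control values, with a log2 fold change of -0.12 ± 0.11 (SE, edgeR adjusted p = 0.626). Col4a5 was the type IV gene with the largest difference, at 9.25, 8.58 and 10.1 FPKM in Control and 10, 9.20 and 13.7 FPKM in KSPAPN. The groups overlapped (log2 fold change 0.24 ± 0.14, SE, edgeR adjusted p = 0.392). Col4a6, the X-linked partner of Col4a5, lay between 0.611 and 0.921 FPKM. Of the exonic bases of Col4a3, 5.65% overlap an antisense gene, C430014B12Rik, and whether reads were counted by strand is not stated.

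The interstitial fibrillar genes Col1a1, Col1a2 and Col3a1 varied widely between pools of the same group. Col3a1, which encodes the chain of type III collagen, was at 4.07, 2.21 and 5.61 FPKM in Control and at 5.74, 3.32 and 9.14 FPKM in KSPAPN. KSPAPN replicate 3 was the highest library, yet the lowest KSPAPN library, replicate 2, lay below 2 of the Control libraries. Replicate 2 was also the lowest Control library. The log2 fold change was 0.62 ± 0.36 (SE, edgeR adjusted p = 0.385) with an interval from -0.18 to 1.42. On leaving out 1 library the log2 fold change ranged from 0.20 without KSPAPN replicate 3 to 0.96 without Control replicate 3. For Col1a2, a chain of type I collagen, the Control libraries read 4.46, 2.94 and 5.86 FPKM and the KSPAPN libraries 6.51, 3.50 and 7.34 FPKM. This gave 0.40 ± 0.28 (SE, edgeR adjusted p = 0.484). Col1a1, which encodes the other type I chain, was at 4.15, 1.81 and 6.23 FPKM in Control and at 5.35, 2.78 and 5.86 FPKM in KSPAPN. Its highest library was a Control library, and the log2 fold change of 0.21 ± 0.38 (SE, edgeR adjusted p = 0.814) turned to -0.15 without Control replicate 2. Without Control replicate 3 the log2 fold change was 0.65.

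Minor and less studied fibrillar genes had log2 fold changes of either sign. Col27a1 had the highest level of the fibrillar class, with 8.42, 9.69 and 9.79 FPKM in Control and 7.82, 7.52 and 9.28 FPKM in KSPAPN. The difference was -0.18 ± 0.11 on the log2 scale (SE, edgeR adjusted p = 0.416). Type V collagen controls the width of type I fibrils. Its chain Col5a2 was at 1.43, 1.60 and 1.70 FPKM in Control and at 0.873, 1.08 and 1.56 FPKM in KSPAPN, so that 1 KSPAPN library reached into the Control range (-0.43 ± 0.20, SE, edgeR adjusted p = 0.292). Col5a3 was at 1.01, 0.618 and 0.669 FPKM and at 0.473, 0.402 and 0.730 FPKM, which also overlapped (-0.51 ± 0.29, SE, edgeR adjusted p = 0.375). Col5a1, in contrast, had a log2 fold change of 0.11 ± 0.30. Col11a2, a chain of the cartilage type XI fibrils, was at 0.513, 0.397 and 0.525 FPKM in Control and at 0.717, 0.561 and 0.657 FPKM in KSPAPN. All KSPAPN libraries exceeded all Control libraries, from 47 to 65 reads against 70 to 114, at 0.44 ± 0.23 (SE, edgeR adjusted p = 0.347).

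**Figure D3:**
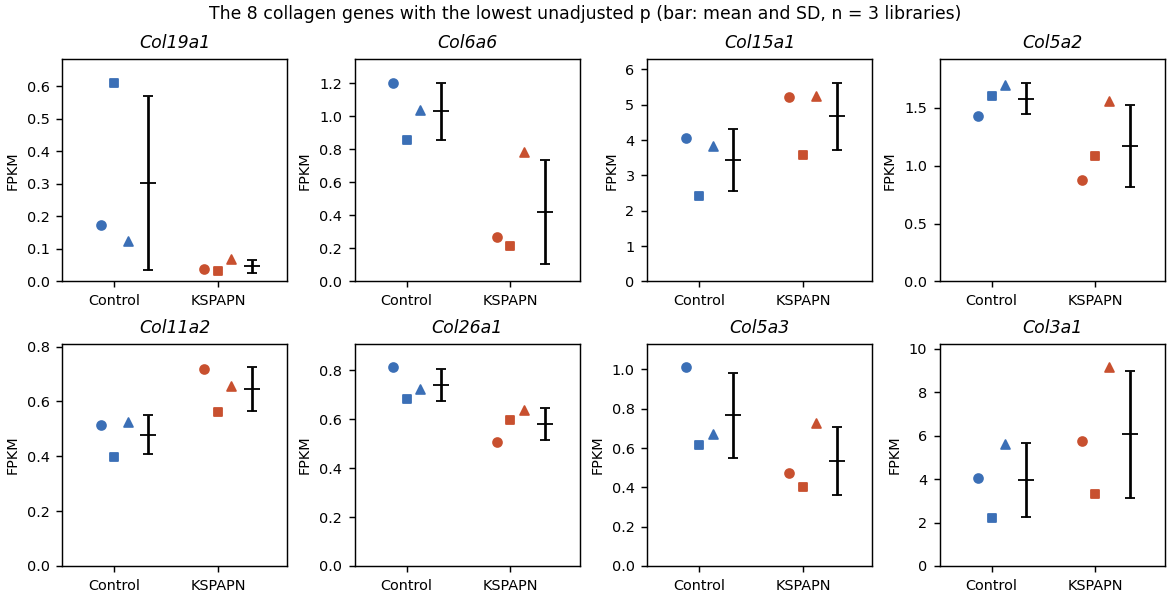
FPKM per library of the 8 collagen genes with the lowest unadjusted p, each on its own linear axis from 0, with Control in blue and KSPAPN in red (circle, square and triangle for replicates 1, 2 and 3) and the mean and SD of 3 libraries in black. The groups are apart in Col19a1, Col6a6, Col11a2 and Col26a1 and overlap in Col15a1, Col5a2, Col5a3 and Col3a1.

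Of the 32 genes tested, the largest differences were in 2 of low level among the other collagens. Col19a1, a fibril-associated collagen of basement membrane zones, was counted at 22, 73 and 15 reads in Control and at 6, 4 and 10 reads in KSPAPN, or 0.172, 0.611 and 0.124 FPKM against 0.0374, 0.0318 and 0.0701 FPKM. Every KSPAPN library was below every Control library, and Control replicate 2 stood far above the other two. The Control level was 6.34-fold that of KSPAPN, with a log2 fold change of -2.66 (interval -4.14 to -1.18). By the quasi-likelihood test of edgeR the adjusted p was 0.0662. DESeq2 gave an adjusted p of 0.0032, so the tools differed in the call. Without Control replicate 2 the log2 fold change was -1.65 (edgeR adjusted p = 0.220), and without Control replicate 3 it was -3.04 (edgeR adjusted p = 0.0427).

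Col6a6, a chain of the beaded filaments of type VI collagen, was counted at 204, 136 and 167 reads in Control and at 57, 36 and 149 reads in KSPAPN. In FPKM these were 1.20, 0.856 and 1.04 against 0.267, 0.215 and 0.784. KSPAPN replicate 3 lay close to the Control libraries, while the others were well below. The Control level was 2.43-fold that of KSPAPN, with a log2 fold change of -1.28 (interval -2.18 to -0.38) and adjusted p = 0.125 by edgeR and 0.0111 by DESeq2. Without KSPAPN replicate 3 it was -2.08 (edgeR adjusted p = 0.0197). Leaving out any other single library gave -0.97 to -1.4, with edgeR adjusted p from 0.173 to 0.371. Of the 100-base stretches of its longest transcript, 2.56% also occur in its neighbour Col6a5, which had 1 to 24 reads per library.

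The other type VI genes tested had positive log2 fold changes, and their difference from Col6a6 was not tested. Col6a1 was at 3.89, 2.67 and 4.94 FPKM in Control and at 4.84, 2.87 and 6.51 FPKM in KSPAPN, with a log2 fold change of 0.32 ± 0.29 (SE, edgeR adjusted p = 0.603). Col6a2 and Col6a3 had log2 fold changes of 0.15 and 0.28, and the libraries of both groups overlapped in all 3 genes. Col15a1, a basement membrane zone collagen related to Col18a1, was at 4.06, 2.43 and 3.84 FPKM in Control and at 5.21, 3.58 and 5.24 FPKM in KSPAPN. One KSPAPN library lay within the Control range, and the log2 fold change was 0.45 ± 0.21 (SE, edgeR adjusted p = 0.279). Col18a1 itself was at 30.7, 25.1 and 32.1 FPKM and at 32.7, 24.2 and 30.6 FPKM, with group means of 29.3 ± 3.70 and 29.2 ± 4.40 FPKM (SD, n = 3). Its log2 fold change interval ran from -0.30 to 0.30. Col16a1, a fibril-associated collagen, lay between 3.90 and 4.92 FPKM (0.10 ± 0.12, SE). Col26a1 was at 0.812, 0.684 and 0.724 FPKM in Control and at 0.509, 0.596 and 0.637 FPKM in KSPAPN, which did not overlap (-0.35 ± 0.19, SE, edgeR adjusted p = 0.371). The remaining genes tested outside the fibrillar and type IV classes lay between the values of Col8a2 (-0.57 ± 0.79) and Col20a1 (0.31 ± 0.26).

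Pools of the same group differed in many collagens at once. Replicate 2 was the lowest library of its group in both Control and KSPAPN for 20 of the 32 collagen genes, 62.5%, beside 16.0% of all genes tested. This held for 6 of the 9 fibrillar genes, 3 of the 6 type IV genes and 11 of the 17 others. The median deviation from the group mean over the 32 genes was 0.12, -0.25 and 0.15 on the log2 scale in Control replicates 1, 2 and 3 and 0.03, -0.27 and 0.28 in KSPAPN, where the medians of all genes were within 0.01 of 0. The same library pattern was present in 7 of the 10 markers of fibroblasts, pericytes and smooth muscle, in 6 of the 7 podocyte markers and in 6 of the 8 endothelial markers, and in 0 of the 10 proximal tubule markers and 0 of the 5 urothelial markers. No marker of these lists was at 0 in every library. The first of these lists summed to 32.5 to 42.0 FPKM in Control and 38.0 to 48.1 FPKM in KSPAPN, and the podocyte list to 43.1 to 65.6 FPKM and 60.5 to 82.6 FPKM. Their part in the collagen values was not tested. Without replicate 2 of both groups, 0 collagen genes were called in either direction and the fibrillar median was 0.11. That alternative was chosen after seeing the data and held fewer libraries. With replicate number as a block in the fit, edgeR called Col3a1 (adjusted p = 0.00979), Col15a1 (0.0384) and Col1a2 (0.0426) higher and Col6a6 (0.0487) lower. The block fit called 1.40% of all genes higher and 4.40% lower, and nothing in the labels pairs the libraries.

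**Figure D4:**
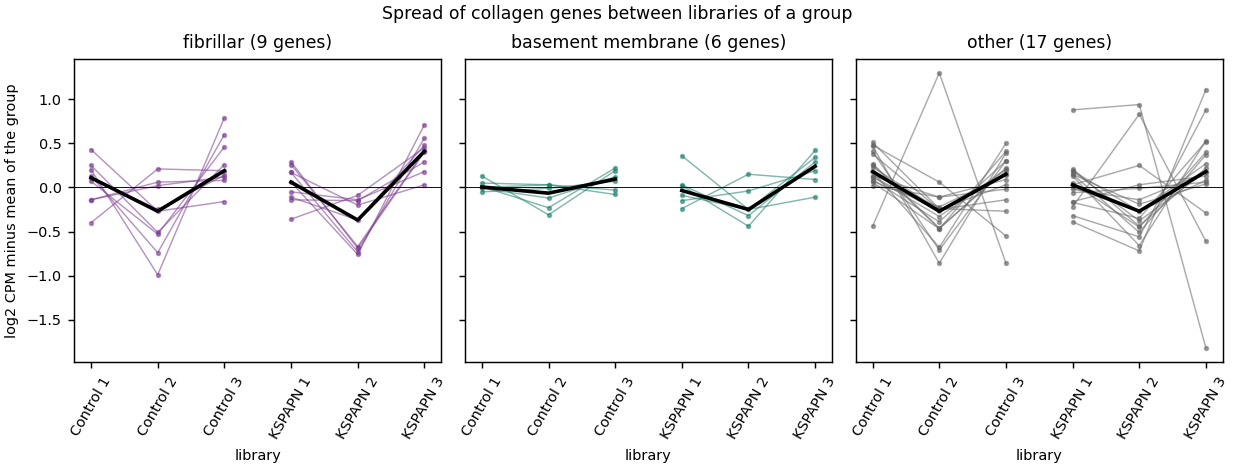
Deviation of each tested collagen gene from the mean of its own group in log2 CPM (counts scaled to library size), by library, with 1 thin line per gene and group and the class median in black. The medians of replicate 2 are the lowest of their group in every class, -0.27 and -0.37 for fibrillar, -0.06 and -0.25 for basement membrane and -0.27 and -0.27 for other collagens.

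Ratios within a library were compared for 4 pairs of chains, since these do not depend on library size. The ratio of Col4a3, of the mature glomerular network, to Col4a1, of the general network, was 0.942, 1.10 and 0.739 in Control and 0.695, 1.25 and 0.661 in KSPAPN. In both groups it was highest in replicate 2. The ratio of Col1a1 to Col1a2, which supply 1 helix, was 0.930, 0.615 and 1.06 in Control and 0.822, 0.793 and 0.799 in KSPAPN. The KSPAPN libraries were alike and lay within the Control range. For Col3a1 to Col1a1 it was 0.980, 1.22 and 0.900 against 1.07, 1.20 and 1.56, and for Col4a2 to Col4a1 it was 1, 0.877 and 0.903 against 0.959, 1.03 and 0.866. The differences of the mean log2 ratio, KSPAPN minus Control, were -0.14, -0.07, 0.30 and 0.03, with p = 0.8, 0.8, 0.3 and 0.8 by a two-sided exact permutation test and 0.8 for each after adjustment over the 4. The smallest p that 3 against 3 libraries allow is 0.1.

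**Figure D5:**
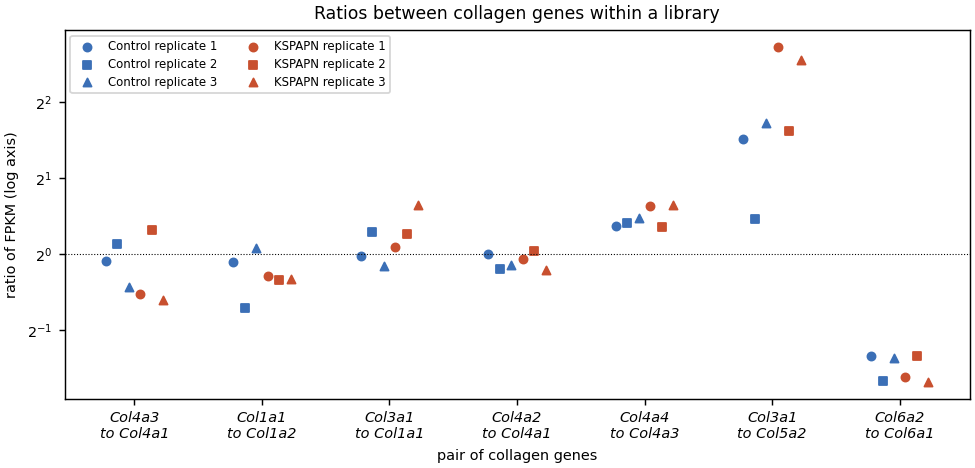
Ratio of FPKM between pairs of collagen genes within each library on a log axis, with Control in blue and KSPAPN in red (circle, square and triangle for replicates 1, 2 and 3). The groups overlap in all 7 pairs, of which the last 3 were picked with their values known and carry no test.

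Genes that make, join, cut and bind collagen or share its matrix were counted in 7 lists with 97 genes tested. By edgeR 0 were higher and 1 lower at an adjusted p below 0.05, beside 0.393% and 2.25% of all genes tested. Of the modification and secretion genes, such as the hydroxylases and chaperones of the endoplasmic reticulum, 19 were tested and 0 were higher or lower at an adjusted p below 0.05. Their lowest p-values belonged to Crtap, a subunit of the prolyl 3-hydroxylation complex (log2 fold change -0.39), and P4ha1, a prolyl 4-hydroxylase subunit (0.20). None of the 14 tested genes of processing and cross-linking was called, among them the cross-linking enzyme Lox (0.96) and the protease Tll1 (0.90). Of 10 tested genes of collagen breakdown, 1 fell, the metalloproteinase inhibitor Timp3. Timp3 was at 117, 118 and 101 FPKM in Control and at 60.7, 80.8 and 80.7 FPKM in KSPAPN, so all KSPAPN libraries were lower (-0.59 ± 0.13, SE, edgeR adjusted p = 0.0388). Mmp2, the type IV collagenase, had a log2 fold change of 0.80 (edgeR adjusted p = 0.247).

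Of 8 collagen receptors tested 0 were called, with Itgb1, the shared beta chain of the collagen-binding integrins, at 0.25 and Cd44 at 0.79. Of 15 basement membrane partners 0 were called by edgeR. Lama1, a laminin chain, was at 3.32, 2.84 and 2.70 FPKM in Control and 2.16, 2.08 and 1.99 FPKM in KSPAPN (-0.50 ± 0.12, SE), with an adjusted p of 0.0584 by edgeR and 0.0198 by DESeq2. Among 17 interstitial partners 0 were called, with the small proteoglycans Fmod at -0.63 and Bgn at 0.34, and among 14 genes of the TGF-beta pathway, which drives collagen synthesis in fibrosis, 0 were called, with the receptor Tgfbr1 at 0.27 and its mediator Smad3 at 0.19. At an unadjusted p below 0.05 by edgeR, these 7 lists held 10 higher and 6 lower genes, or 10.3% and 6.19% of the 97 tested, beside 7.52% and 11.2% of all genes.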

How the data were processed

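Total RNA of whole kidney, enriched for mRNA with oligo(dT) beads, was sequenced in 3 Control and 3 KSPAPN libraries of 3 pooled mice each. The authors deposited 1 table with raw read counts and FPKM per gene for each library. Those counts are raw whole numbers, and the FPKM were scaled by the authors for gene length and library size. The submitters' processing notes name STAR 2.5, TopHat, HTSeq 0.6.1, DESeq2 and edgeR without their roles. For genome build, annotation and strandedness of counting the entry is: not given in the sources used here. Gene identifiers were matched to GENCODE M21 (54495 of 54532). Counts of all genes were fitted with edgeR 4.0.16 (R 4.3.3) by the quasi-likelihood test, with TMM factors, group as the only term, and genes kept by a minimum count of 10 and minimum total of 15, which left 16017; p-values were two-sided with Benjamini-Hochberg adjustment and a threshold of 0.05. The fit was checked on simulated data with the same dispersion for every gene and independent libraries. That check does not cover genes that vary more between pools. Standard errors of edgeR fits were derived as the absolute log2 fold change over the square root of the quasi-likelihood F statistic. The 95% intervals were built from these with the t distribution. Chain ratios were compared by exact permutation with scipy 1.17.1. Alternatives were DESeq2 1.42.0, limma 3.58.1 on log2(FPKM + 1) and log2(FPKM + 0.1), other scalings, no filter, a correction for GC content and length, a replicate block and leaving out libraries. No collagen passed the threshold, so values per library are given for the 8 with the lowest p. They are also given for the 3 with the highest mean FPKM in each class, and for the 4 ratios and their genes. Col4a5 and Col4a6 were added to complete their class. Reads of some collagens below the filter on low counts, and ratios of neighbouring genes, are given under other observations. From each other list, called genes and the 2 with the lowest p are named, except for a gene that is not reported here. The members and lists were chosen with earlier results of these data known. Precision is set by the 3 pools per group and, for genes of few reads, by depth.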

Additional observations from a re-analysis of the deposited data

How the results depend on the processing

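By edgeR, 0 collagen genes were called in either direction with RLE factors, total counts only and the GC content and length correction. The same held without replicate 2 of both groups, a setting chosen after seeing the data. By limma, 0 were called at either pseudocount. With no filter on low counts edgeR called 3 higher and 2 lower, and DESeq2 called 0 higher and 2 lower (Col6a6 and Col19a1). Leaving out 1 library gave 0 higher and 0 to 1 lower, Col19a1 without Control replicate 3 and Col6a6 without KSPAPN replicate 3. Same-numbered libraries correlated at 0.0537, 0.154 and 0.173 in their deviations from the group means, each number correlating best with its own, and nothing in the labels pairs them. With the replicate block 3 were higher, Col3a1 (adjusted p = 0.00979 by edgeR), Col15a1 (0.0384) and Col1a2 (0.0426), and 1 was lower, Col6a6 (0.0487), in a fit that called 1.40% of all genes higher and 4.40% lower. The differences of the mean log2 ratio ranged on leaving out 1 library from -0.43 to 0.028 for Col4a3 to Col4a1, from -0.31 to 0.089 for Col1a1 to Col1a2 and from -0.024 to 0.10 for Col4a2 to Col4a1. Col4a4, Col4a1, Col4a2, Col18a1, Col4a3 (log2 fold change -0.12) and Col1a1 (0.21) changed sign under at least 1 alternative. Col4a4 read -0.0026 and -0.0028 with limma and -0.014 with the GC content and length correction, and Col18a1 -0.00013 with DESeq2, -0.00086 with no filter, -0.0093 and -0.0097 with limma and -0.0037 with the replicate block. On leaving out 1 library the log2 fold change ranged from -0.087 to 0.10 for Col4a4, from -0.19 to 0.23 for Col4a1, from -0.11 to 0.19 for Col4a2, from -0.19 to 0.012 for Col4a3, from -0.10 to 0.12 for Col18a1 and from -0.15 to 0.65 for Col1a1. Col11a2, Col15a1, Col16a1, Col19a1, Col1a2, Col26a1, Col27a1, Col3a1, Col5a2, Col5a3, Col6a1 and Col6a6 kept their sign under each of these alternatives, other collagens were not followed through them, and the cause of the shifts was not tested. Total counts moved the median of all genes from 0.012 to 0.081, so collagen values there are read against that shift.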

Other observations

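The 12 collagens below the filter on low counts included genes of cartilage and skin. Col2a1, the fibrillar collagen of cartilage, had 4 reads in KSPAPN replicate 3 and 0 in the other libraries, and Col9a1 had 3 reads in Control replicate 3 and 0 elsewhere. Col17a1, a transmembrane collagen of the epidermal anchoring complex, had 0 to 6 reads per library, and Col10a1, of growing cartilage, had 2 to 8. Col11a1 had 5, 9 and 17 reads in Control and 7, 12 and 7 in KSPAPN. Col6a5 had 7, 1 and 6 reads against 24, 7 and 2 in KSPAPN, and Col6a4 had 27, 7 and 6 against 7, 10 and 4. None of the 12 was tested.

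Neighbouring collagen genes were set side by side after their values were seen, with no test. The ratio of Col4a4 to Col4a3, which start 71 bases apart, was 1.29, 1.33 and 1.39 in Control and 1.55, 1.28 and 1.56 in KSPAPN. Col3a1 and Col5a2, 24614 bases apart on chromosome 1, had log2 fold changes of 0.62 and -0.43, and their ratio was 2.84, 1.38 and 3.30 in Control and 6.58, 3.06 and 5.86 in KSPAPN. One KSPAPN library lay within the Control range. Col6a2 to Col6a1 was 0.396, 0.314 and 0.388 against 0.326, 0.396 and 0.313. Exons of 13 collagen genes overlap those of another gene, at most 6.07% of the exonic bases in Col9a3, and 31 overlap none.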
